A study of Mus musculus with 6 samples.

Results

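The genes described here are 10 genes of the elastic fiber and its assembly in the great artery wall: *Eln*, *Fbn1*, *Fbn2*, *Fbln1*, *Fbln2*, *Fbln5*, *Emilin1*, *Mfap4*, *Lox* and *Loxl1*. They were named by symbol and matched by Ensembl mouse identifier. All 10 were found among 28777 genes listed, and all 10 were among the 28157 genes tested. Bulk RNA-Seq was performed on the cardiac outflow tract (OFT), the vessel-forming end of the embryonic heart, at E13.5. There were 3 libraries labelled mutant, Notch1-het; Nos3- null (heterozygous for *Notch1* and lacking *Nos3*), and 3 labelled wildtype. Each library held 3 pooled OFTs, 18 in all, so that values of single embryos were averaged within a library. Wildtype controls were littermates, and both knockout strains were kept on a C57/BL6J background. The comparison asks which transcripts differ in the OFT of the compound genotype. Depth was between 34729103 and 44387490 counts per library.

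Elastic fibers give arteries their recoil. Tropoelastin, the soluble product of *Eln*, is laid onto a scaffold of fibrillin microfibrils, guided there by fibulins and other microfibril proteins, and cross-linked by lysyl oxidases into insoluble elastin. In the embryo the process begins around the large arteries that arise from the OFT, in smooth muscle cells and their mesenchymal precursors.

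The targeted genes were examined first. *Notch1*, which encodes the receptor that is heterozygous in the mutant, was counted at 74.3, 88.2 and 83.6 CPM (counts per 1000000 counts of a library, scaled by TMM) in wildtype libraries 1, 2 and 3, and at 155, 160.5 and 139 CPM in mutant libraries 1, 2 and 3. All libraries labelled mutant were above all libraries labelled wildtype, although the label names them heterozygous for *Notch1*. Its log2 fold change of mutant over wildtype was 0.89 ± 0.10 (SE), with an edgeR adjusted p of 0.0313. Of 6 fits without 1 library, edgeR called *Notch1* in 1 (without wildtype library 1, adjusted p of 0.00626), while the log2 fold change lay between 0.82 and 0.94 in all 6. Its adjusted p over all alternatives lay between 6.25e-11 and 0.339. *Nos3*, endothelial nitric oxide synthase, was counted at 31.8, 47.2 and 48.1 CPM in wildtype libraries and at 22.1, 22.0 and 20.4 CPM in mutant libraries. Every mutant library was below every wildtype library, the direction that the label names, but still held *Nos3* reads. The log2 fold change was -0.98 ± 0.15 (SE), with an adjusted p of 0.128 in edgeR and 9.14e-06 in DESeq2. edgeR called *Nos3* in 1 of 6 fits without 1 library (without wildtype library 1, adjusted p of 0.00176), while the log2 fold change lay between -1.15 and -0.88 in all 6. Its adjusted p over all alternatives lay between 9.14e-06 and 0.576. The allele structure was not examined, and counts per gene do not show which allele the reads come from. *Notch1* was higher, not lower, in the libraries labelled heterozygous for it. Wildtype and mutant therefore stand below for the libraries labelled so, and every direction given is one between labels. The numbers of wildtype libraries 2 and 3 are uncertain, since titles and descriptions number them in opposite ways.

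Across the 10 genes, wildtype library 3 was the lowest of the 6 libraries for 10 of 10, and mutant library 2 was the highest for 9 of 10. The fitted log2 fold change was above 0 for 10 of 10 genes, from 0.19 for *Fbn1* to 0.89 for *Fbln5*, with a median of 0.45. Leaving out 1 library moved that median to between 0.29 (without wildtype library 3) and 0.79 (without wildtype library 1). By over 1.5 times it moved the log2 fold change of 9 of 10 genes, all but *Fbln1*, the libraries being wildtype 1, wildtype 3 and mutant 2, and the signs stayed above 0. Over all genes tested, 14406 of 28157 (51.2%) were above 0 and the median was 0.01. With edgeR's quasi-likelihood test, 0 of 10 genes passed an adjusted p of 0.05, where 6 of all genes tested did (0.0213%). With DESeq2's Wald test, 0 of 10 passed, where 749 of all genes tested did (2.66%). DESeq2 gave an adjusted p to only 17781 of the 28157 genes tested, among them all 10 members, so 2.66% understates the share among genes that could be called. Libraries of the same label were spread widely for most of these genes. At an unadjusted p under 0.05 in edgeR, 5 of 10 genes were higher in mutant libraries, against 8.23% of all genes in that direction. That count was 1 without wildtype library 3, without mutant library 1 or without mutant library 2. In these fits 2741 of 27757, 2333 of 27435 and 2104 of 27485 genes passed, in either direction. Without wildtype library 1 the count was 9, where 7214 of 27450 genes passed. It was 2 with GC content and gene length corrected for (4520 of 28157 genes) and 8 with scaling by library size alone (4569 of 28157 genes). Only *Fbln1* had groups without overlap, 1 of 10 genes, where 10.7% of all genes tested lay without overlap and higher in mutant libraries. That share is close to the background and is no result about these genes. The number of genes called moved between fits. Without wildtype library 1, edgeR called 2 of 10 genes, *Fbn2* and *Fbln1*, both higher in mutant libraries. In that direction it then called 1139 of 27450 genes (4.15%). With the replicate number of the titles as a block it called 9 of 10, where it called 1577 of 28157 genes. With GC content and gene length also corrected for, these were 5 of 10 and 2203. A block by the numbers in the descriptions called 0 of 10, and 83 of all genes. The numbers were not taken as a pairing.

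**Figure D1:**
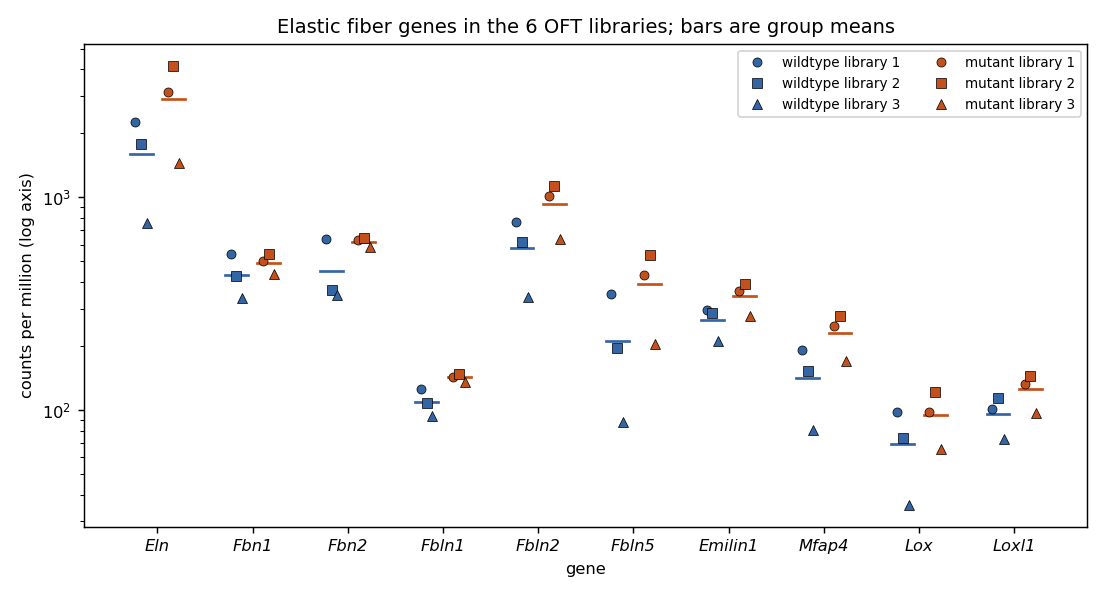
Each point is 1 library, in CPM on a log axis, for each of the 10 elastic fiber genes; bars mark the mean of the 3 libraries labelled wildtype (blue) or mutant (orange). Wildtype library 3 is the lowest point of every gene, and the groups are apart only for *Fbln1*.

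*Eln* encodes tropoelastin and lies on chromosome 5 (chr5:134702593-134747323, minus strand, mm10). It was counted at 2262, 1778 and 757 CPM in wildtype libraries 1, 2 and 3, and at 3146, 4151 and 1455 CPM in mutant libraries 1, 2 and 3. The groups overlapped, since mutant library 3 lay below wildtype libraries 1 and 2, and libraries of the same label differed severalfold. Within the wildtype label the highest library was 2.99 times the lowest, and within the mutant label 2.85 times. Means were 1599 ± 769 CPM in wildtype and 2918 ± 1363 CPM in mutant libraries (SD, n = 3). The log2 fold change of 0.87 ± 0.40 (SE) had an edgeR adjusted p of 0.318 and lay between 0.53 (without mutant library 2) and 1.20 (without wildtype library 1) when 1 library was left out. For *Eln*, the exact permutation test, two-sided, gave p = 0.3. With 3 libraries against 3, this permutation test cannot give a p below 0.1 and so cannot pass 0.05. By edgeR's test in the fit without a block, with an unadjusted p of 0.0527, the difference in *Eln* did not pass the threshold. With the replicate number of the titles as a block, its edgeR adjusted p was 0.000696, and with that of the descriptions 0.305.

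The fibrillins are the large glycoproteins that polymerize into microfibrils, *Fbn2* mainly in the embryo. *Fbn1* (chr2:125300594-125507993, minus strand) was counted at 541, 425.5 and 335 CPM in wildtype libraries, and at 504.5, 540 and 437 CPM in mutant libraries. Wildtype library 1 was the highest of the 6, while wildtype libraries 2 and 3 were below every mutant library. The groups thus overlapped through wildtype library 1. Mutant over wildtype, the log2 fold change was 0.19 ± 0.16 (SE), with an edgeR adjusted p of 0.604. For *Fbn1* that value was close to 0 in some alternatives, at 0.031 without wildtype library 3 and 0.053 with GC content and gene length corrected for. Without wildtype library 1 it was 0.38. With the Myocardial and VSMC covariates it was below 0, at -0.14 and -0.061. *Fbn2* (chr18:58008623-58210487, minus strand) was counted at 641, 369 and 347 CPM in wildtype libraries, and at 629, 643 and 585 CPM in mutant libraries. Here wildtype library 1 was as high as the mutant libraries, and wildtype libraries 2 and 3 stood lower together. The mutant libraries lay close to each other, at 619 ± 30.6 CPM (SD, n = 3), against 452 ± 164 CPM in wildtype libraries. The log2 fold change was 0.45 ± 0.20 (SE), with an adjusted p of 0.304 in edgeR and 0.163 in DESeq2. The paper, which called genes with DESeq2 at an adjusted p of at most 0.05, lists *Fbn2* as differentially expressed. The cause of this difference was not tested. Without wildtype library 1, the log2 fold change of *Fbn2* was 0.79, with an edgeR adjusted p of 0.00506, the lowest of its alternatives, which ranged up to 0.964; without wildtype library 3 it was 0.29, with an edgeR adjusted p of 0.611.

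*Emilin1* encodes a glycoprotein at the interface of elastin and microfibrils, and *Mfap4* a microfibril-associated glycoprotein that binds tropoelastin. *Emilin1* (chr5:30913402-30921277, plus strand) was counted at 296.5, 286.5 and 211.5 CPM in wildtype libraries, and at 363, 392 and 277 CPM in mutant libraries. Mutant libraries 1 and 2 were above all wildtype libraries, and mutant library 3 lay among them. Its log2 fold change was 0.38 ± 0.16 (SE), with an edgeR adjusted p of 0.291, and was 0.16 with GC content and gene length corrected for. *Mfap4* (chr11:61485431-61488900, plus strand) was counted at 191.5, 153 and 80.9 CPM in wildtype libraries, and at 247, 278 and 170 CPM in mutant libraries. Again mutant library 3 fell below wildtype library 1, so the groups overlapped. For *Mfap4* the log2 fold change was 0.71 ± 0.27 (SE), with an edgeR adjusted p of 0.255.

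Fibulins are secreted glycoproteins of elastic fibers and basement membranes. *Fbln5*, which binds tropoelastin, integrins and lysyl oxidase-like enzymes, lies on chromosome 12 (chr12:101746565-101819055, minus strand). It was counted at 350, 196 and 87.7 CPM in wildtype libraries, and at 431, 539 and 205 CPM in mutant libraries. Its values ran through the libraries much as those of *Eln* did, with wildtype library 3 far below the rest and mutant library 3 below wildtype library 1. The highest library was 6.145 times the lowest, the widest span of the 10 genes. Means were 211 ± 132 CPM in wildtype and 392 ± 170 CPM in mutant libraries (SD, n = 3). The log2 fold change of 0.89 ± 0.43 (SE) was the largest of the 10 and had an edgeR adjusted p of 0.338. It was 0.52 without wildtype library 3 and 1.47 without wildtype library 1.

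*Fbln2*, a fibulin of cushion mesenchyme and the artery wall, is on chromosome 6 (chr6:91212455-91272540, plus strand). It was counted at 770 (wildtype 1), 619 (wildtype 2) and 340.5 (wildtype 3) CPM, and at 1014, 1131 and 634 CPM in mutant libraries. Mutant libraries 1 and 2 were above all wildtype libraries, and mutant library 3 was between wildtype libraries 1 and 2. For *Fbln2* the log2 fold change was 0.68 ± 0.28 (SE), with an edgeR adjusted p of 0.273. *Fbln1*, the first fibulin described, lies on chromosome 15 (chr15:85205949-85286535, plus strand). It was counted at 125, 108 and 93.9 CPM in wildtype libraries, and at 144, 148 and 135.5 CPM in mutant libraries. All mutant libraries were above all wildtype libraries, by a small distance, and both groups were narrow. Means were 109 ± 15.7 CPM in wildtype and 142 ± 6.33 CPM in mutant libraries (SD, n = 3), and the exact permutation test gave p = 0.1, the smallest it can give. The log2 fold change was 0.38 ± 0.12 (SE), with an adjusted p of 0.203 in edgeR and 0.0580 in DESeq2. Without wildtype library 1 it was 0.50, with an edgeR adjusted p of 0.0206, the lowest of its alternatives, which ranged up to 0.892.

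Lysyl oxidases are the copper enzymes that oxidize lysines of tropoelastin and collagen, the step that starts cross-linking. *Lox* (chr18:52516067-52529867, minus strand) was counted at 98.4, 73.6 and 35.9 CPM in wildtype libraries, and at 98.0, 121.5 and 65.9 CPM in mutant libraries. Wildtype library 1 was level with mutant library 1, and the groups overlapped. *Lox* had a log2 fold change of 0.46 ± 0.31 (SE), with an edgeR adjusted p of 0.491, and lay between 0.15 (without wildtype library 3) and 0.80 (without wildtype library 1) when 1 library was left out. *Loxl1* (chr9:58287738-58313186, minus strand), which acts on elastin with *Fbln5*, was counted at 101, 114 and 72.8 CPM in wildtype libraries, and at 133, 145 and 97.0 CPM in mutant libraries. Mutant library 3 was below wildtype libraries 1 and 2. *Loxl1* had a log2 fold change of 0.38 ± 0.18 (SE), with an edgeR adjusted p of 0.324; with GC content and gene length corrected for, it was 0.19.

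Together, the 10 genes summed to 5377, 4121 and 2362 CPM in wildtype libraries 1, 2 and 3, and to 6711, 8088 and 4061 CPM in mutant libraries 1, 2 and 3. The sum of mutant library 3 was under that of wildtype libraries 1 and 2. The genes fell into steep and shallow ones. For 5 of 10 (*Eln*, *Fbln2*, *Fbln5*, *Mfap4* and *Lox*) the highest library was more than 2 times the lowest, and for the other 5 it was between 1.575 times (*Fbln1*) and 1.995 times (*Loxl1*).

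How alike the genes ran was measured by the root mean square (RMS) difference of log2(CPM + 0.5) over the 6 libraries, after subtracting the mean of each gene, for the 45 pairs of members. The closest pair was *Fbln2* and *Mfap4*, with an RMS difference of 0.05, followed by *Emilin1* and *Loxl1* with 0.08. The most distant pair was *Fbln1* and *Fbln5*, a shallow and a steep gene, with 0.67. Of 11285 other genes whose mean reached 10 CPM, those nearest to *Eln* were *Rgs5* (0.16), *Fbln5* (0.17), *Adamts2* (0.21), *Sfrp2* (0.21) and *Galnt16* (0.23). *Fbln5* was thus the only other member among these 5. *Rgs5*, a regulator of G protein signaling, was counted at 69.2, 43.1 and 23.8 CPM in wildtype libraries, and at 82.5, 113 and 47.7 CPM in mutant libraries. These distances describe 6 libraries and carry no test.

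Levels between genes were compared per length, as CPM divided by the kilobases of the exon union (RPKM). *Eln* was first in both groups, at 197 ± 94.9 RPKM in wildtype and 360 ± 168 RPKM in mutant libraries (SD, n = 3). *Fbln2* came next, at 90.5 ± 34.2 RPKM and 145 ± 40.8 RPKM, followed by *Mfap4*, at 73.7 ± 29.2 RPKM and 120.5 ± 29.0 RPKM. By mean, *Eln* thus led its fibulin and microfibril partners per length under both labels. *Emilin1* followed, at 53.6 ± 9.41 RPKM and 69.6 ± 12.1 RPKM. Then came *Fbn1*, *Fbn2*, *Fbln5*, *Loxl1* and *Fbln1* in wildtype libraries, from 35.8 ± 8.52 RPKM for *Fbn1* to 25.0 ± 3.60 RPKM for *Fbln1*. In mutant libraries the order of these was *Fbln5*, *Fbn2*, *Fbn1*, *Loxl1* and *Fbln1*, from 56.7 ± 24.6 RPKM to 32.6 ± 1.45 RPKM. The enzymes *Loxl1* and *Lox* and the fibulin *Fbln1* were at the low end. *Lox* was last in both groups, at 14.5 ± 6.60 RPKM and 19.9 ± 5.84 RPKM. Neighbours in these orders mostly shared their range: 8 of 9 neighbouring pairs overlapped in wildtype libraries, all but *Fbln1* and *Lox*. In mutant libraries 6 of 9 overlapped, and the pairs apart were *Eln* and *Fbln2*, *Mfap4* and *Emilin1*, and *Fbln1* and *Lox*. With the longest transcript as length, *Eln* was first at 415 and 757 RPKM, and *Fbln2*, *Mfap4* and *Emilin1* came next and *Lox* last under both labels. The order between them changed, to *Fbn2*, *Fbln5*, *Fbn1*, *Fbln1* and *Loxl1* in wildtype libraries and *Fbln5*, *Fbn2*, *Fbn1*, *Fbln1* and *Loxl1* in mutant libraries.

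Markers of cell types were then set beside the genes, since the OFT holds myocardium, smooth muscle, mesenchyme and endothelium. All 4 of these marker lists were present, and 0 genes of any marker list were at or under 3 counts in every library. Mesenchymal markers, mostly matrix and transcription factor genes and not particular to the cushions, had fitted log2 fold changes above 0 for 11 of 11 genes. They summed to 9675, 6718 and 4948 CPM in wildtype libraries and to 10657, 11657 and 9011 CPM in mutant libraries. Their most abundant gene, *Col3a1*, was counted at 3140, 2324 and 1532 CPM and at 3575, 4136 and 2788 CPM. These sums run as the elastic fiber genes do, with wildtype library 3 lowest and mutant library 2 highest. Myocardial markers, mostly sarcomere genes, were below 0 for 13 of 13 genes and ran the other way. They summed to 32842, 36351 and 48416 CPM in wildtype and to 26870, 22350 and 32296 CPM in mutant libraries. Their most abundant gene, *Myh7*, was counted at 7213, 7051 and 10008 CPM and at 6065, 5064 and 6060 CPM. The part of either list in the values of the elastic fiber genes was not tested. In bulk RNA, fewer cells of a type and less RNA per cell cannot be told apart.

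With the mean of the Myocardial markers as a covariate, 7 of 10 elastic fiber genes had a log2 fold change below 0 and the median was -0.04, while *Fbn2*, *Fbln1* and *Mfap4* stayed above 0, at 0.17, 0.21 and 0.04. With the mean of the VSMC markers as a covariate, 4 of 10 were below 0 and the median was 0.05. In both fits edgeR called 0 of 10 genes, and 0 of 10 had an unadjusted p under 0.05. Over all genes tested, 5 (0.0178%) were called with the Myocardial covariate and 3 (0.0107%) with the VSMC covariate. The shares of all genes at an unadjusted p under 0.05 were 6.10% and 6.20%. Both covariates come from the same 6 libraries and partly follow the label. The centred Myocardial means were 0.017, 0.13 and 0.65 in wildtype libraries and -0.29, -0.64 and 0.13 in mutant libraries. The VSMC means were -0.0077, -0.061 and -0.14, and 0.091, 0.20 and -0.079. These fits therefore cannot fully part a covariate from the label.

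VSMC (vascular smooth muscle cell) markers, 6 of 10 above 0, ran differently by sum and by mean. They summed to 2011, 2191 and 2410 CPM in wildtype and to 2004, 1850 and 2002 CPM in mutant libraries, so wildtype library 3 was the highest of the 6. Their most abundant gene was *Acta2*, at 1201, 1417 and 1628 CPM and at 1219, 1054 and 1297 CPM, a gene that embryonic myocardium also expresses. The mean over the list of log2(CPM + 0.5), centred on each gene, instead ordered the 6 libraries as *Eln* did, from -0.14 in wildtype library 3 to 0.20 in mutant library 2. The part of the VSMC list in the values of the elastic fiber genes was not tested. Endothelial and blood lists ran otherwise than the elastic fiber genes. Endothelial markers, 2 of 10 above 0, summed to 999, 1269 and 1328 CPM and to 1100, 1094 and 1206 CPM, most of all from *Cdh5*. Blood markers, 0 of 7 above 0 and led by *Hba-a1*, summed to 3768, 8507 and 7302 CPM and to 4441, 4399 and 4503 CPM. Wildtype library 1 thus held less blood RNA than wildtype libraries 2 and 3 and close to that of the mutant libraries.

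The remaining lists were small in sum. Epicardial markers, 2 of 8 above 0 and led by *Upk3b*, summed to 253, 412 and 316 CPM in wildtype and to 288, 338 and 275 CPM in mutant libraries. Macrophage markers, 4 of 7 above 0 and led by *Csf1r*, summed to 89.6, 138 and 103 CPM and to 95.1, 114 and 116 CPM. Neither list ran as the elastic fiber genes did. Markers of neural crest and glia, 5 of 5 above 0 and led by *Erbb3*, summed to 36.0, 22.4 and 22.5 CPM and to 32.9, 40.1 and 30.9 CPM. Their centred mean over the list was lowest in wildtype library 3 (-0.28) and highest in mutant library 2 (0.27), as for most elastic fiber genes. Cartilage markers, 2 of 4 above 0 and led by *Col2a1*, summed to 192, 129 and 137 CPM and to 209, 204 and 131 CPM. The part of the blood and neural crest lists in the values of the elastic fiber genes was not tested either.

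**Figure D2:**
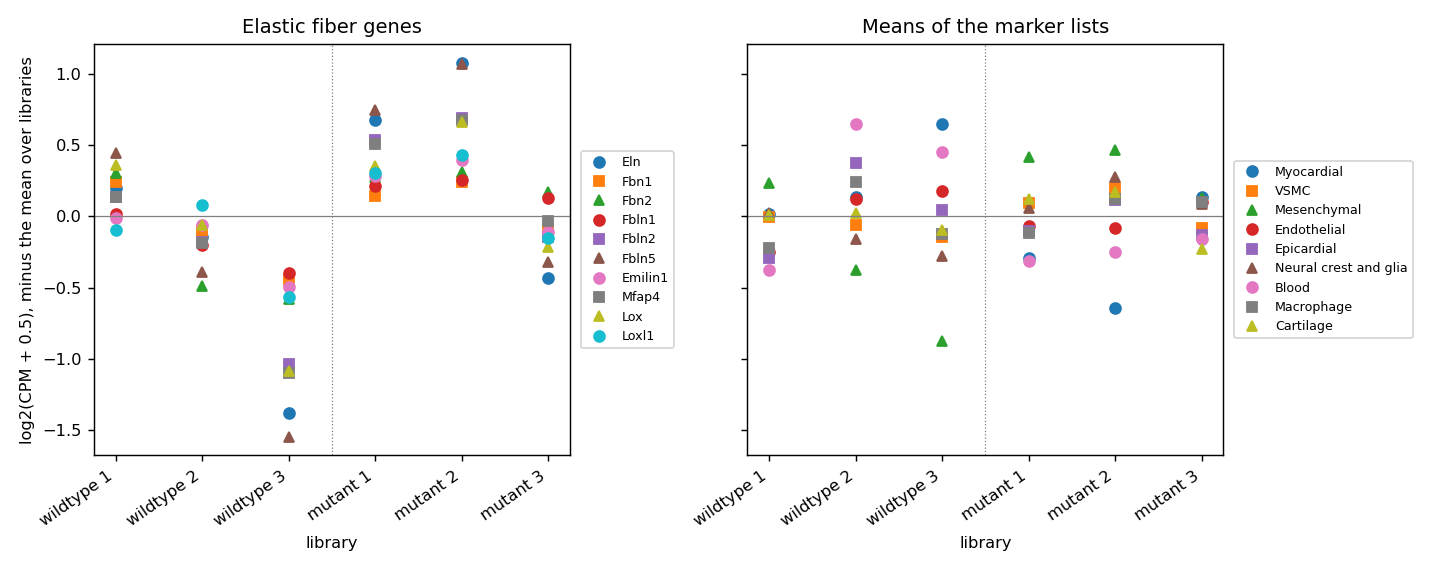
Left, log2(CPM + 0.5) of each elastic fiber gene minus its mean over the 6 libraries; right, the same averaged over each marker list, 1 point per gene or list in each library. In wildtype library 3 the elastic fiber genes and the Mesenchymal mean are low and the Myocardial mean is high, and in mutant library 2 the reverse is seen.

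Another 33 genes of elastogenesis were grouped by role, of which 32 were tested; *Elane* was not among the genes listed. Fitted log2 fold changes were above 0 for 23 of 32, with a median of 0.18. That median was 0.11 without wildtype library 3 and without mutant library 2, and 0.27 without wildtype library 1. Of 17 genes of this list followed through the alternatives, 10 moved by over 1.5 times when 1 library was left out. With the Myocardial covariate 15 of 32 were above 0. With GC content and gene length corrected for, 18 of 32 were above 0. edgeR called 0 of 32, where it called 0.0213% of all genes tested. DESeq2 called 2, *Adamts10* and *Bmp1*, where it called 2.66% of all genes tested, including those it gave no adjusted p. *Mmp9* and *Mmp12* were given none. At an unadjusted p under 0.05 in edgeR there were 14 of 32, where 16.1% of all genes tested were, in either direction. That count was 7 without wildtype library 3, without mutant library 1 or without mutant library 2. In these fits 2741 of 27757, 2333 of 27435 and 2104 of 27485 genes passed. Without wildtype library 1 the count was 17, where 7214 of 27450 genes passed. It was 5 with the Myocardial covariate (6.10% of all genes) and 4 with the VSMC covariate (6.20%). Groups lay without overlap for 5 genes higher in mutant libraries, where 10.7% of all genes tested did, and for 2 genes lower, where 8.94% did. Without wildtype library 1, edgeR called 11 of 32, of which 10 were higher and *Mmrn2* was lower in mutant libraries, where 9.45% of all genes were called in either direction.

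The largest group, of 11 genes, encodes microfibril proteins, latent TGF-beta binding proteins and ADAMTS-like modifiers of microfibrils. Of these, 10 were above 0, with a median log2 fold change of 0.48. Groups lay without overlap for 3, all higher in mutant libraries, where 10.7% of all genes tested did in that direction. *Ltbp2*, a microfibril protein that binds *Fbln5*, was counted at 30.8, 16.4 and 8.32 CPM in wildtype libraries, and at 51.9, 56.2 and 40.5 CPM in mutant libraries. All mutant libraries were above all wildtype libraries, though the wildtype libraries differed 3.70-fold among themselves. Its log2 fold change of 1.41 ± 0.35 (SE), the largest among the elastogenesis genes, had an edgeR adjusted p of 0.181. *Adamts10*, a secreted protease that binds fibrillin, was counted at 66.2, 59.1 and 42.2 CPM in wildtype libraries, and at 108, 112 and 75.0 CPM in mutant libraries. It had no overlap either, and its log2 fold change of 0.82 ± 0.18 (SE) had an adjusted p of 0.181 in edgeR and 0.00275 in DESeq2. *Ltbp3* and *Ltbp4*, which hold latent TGF-beta in the matrix, had log2 fold changes of 0.85 ± 0.24 and 0.58 ± 0.21 (SE), with overlapping groups. *Ltbp4* was at 0.38 without wildtype library 3 and 0.33 with GC content and gene length corrected for. With the Myocardial covariate *Ltbp2*, *Adamts10*, *Ltbp3* and *Ltbp4* were at 0.77, 0.36, 0.25 and 0.055, and with the VSMC covariate at 0.96, 0.44, 0.37 and 0.16. *Mfap2*, a small microfibril protein, was at 0.51 ± 0.21 (SE), at 0.30 without wildtype library 3 and at -0.0074 with the Myocardial covariate. *Ltbp1* was at 0.27 ± 0.19 (SE), and at -0.052 with that covariate. *Adamtsl2* lies 0.563 Mb from *Notch1* on chromosome 2; its log2 fold change was 0.48 ± 0.14 (SE), and its groups did not overlap.

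*Bmp1*, the procollagen C-proteinase that also activates lysyl oxidase, was counted at 126, 110 and 91.9 CPM in wildtype libraries, and at 181, 183 and 135 CPM in mutant libraries. Every mutant library was above every wildtype library. *Bmp1* had a log2 fold change of 0.61 ± 0.15 (SE), with an adjusted p of 0.181 in edgeR and 0.0106 in DESeq2. It belongs to the 5 chaperone, copper and processing genes, of which 4 were above 0. *Slc2a10*, a transporter whose loss causes tortuous arteries, was at 0.53 ± 0.20 (SE) in that group. With the Myocardial covariate *Bmp1* and *Slc2a10* were at 0.28 and 0.18, and with the VSMC covariate at 0.33 and 0.21.

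The fibulin relatives did not share one direction. *Efemp2* (fibulin-4), which carries lysyl oxidase to tropoelastin, had a log2 fold change of 0.39 ± 0.16 (SE), which was 0.24 without wildtype library 3 and 0.011 with the Myocardial covariate. *Efemp1* (fibulin-3) had one of -0.34 ± 0.14 (SE), with counts of only 7.47 to 11.2 CPM over the 6 libraries and no overlap. Of the 4 genes in that group, 1 was above 0.

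Emilin and multimerin relatives were likewise divided, with 2 of 4 above 0. *Emilin2* was counted at 80.4, 74.9 and 134 CPM in wildtype libraries, and at 51.0, 40.3 and 74.4 CPM in mutant libraries. Every mutant library was below every wildtype library, although mutant library 3 and wildtype library 2 nearly met. Its log2 fold change of -0.80 ± 0.25 (SE) had an edgeR adjusted p of 0.208. It was -0.49 without wildtype library 3 and -0.16 with the Myocardial covariate. *Mmrn2*, a multimerin of endothelial cells, was at -0.65 ± 0.23 (SE), with overlapping groups, at -0.39 without wildtype library 3 and at -0.13 with the Myocardial covariate.

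Of the remaining lysyl oxidases, *Loxl2*, *Loxl3* and *Loxl4*, 3 of 3 had a log2 fold change above 0, but close to it. *Loxl3* was at 0.02 ± 0.14 (SE), and *Loxl4*, with 8 to 38 counts per library, at 0.02 ± 0.46 (SE); both changed sign between alternatives. *Loxl2* was at 0.20 ± 0.18 (SE), and between 0.054 (without wildtype library 3) and 0.46 (without wildtype library 1) when 1 library was left out. Without wildtype library 1 its edgeR adjusted p was 0.0213. Its sign changed too, to -0.072 with the Myocardial covariate and -0.0047 with the VSMC covariate. *Loxl2* was counted at 1001, 649 and 594 CPM in wildtype and 867, 904 and 799 CPM in mutant libraries, with wildtype library 1 the highest of the 6. The elastin-degrading proteases were above 0 for 3 of 5. *Mmp2*, a gelatinase that also cleaves elastin, was at 0.46 ± 0.16 (SE), at 0.29 without wildtype library 3 and at 0.11 with the Myocardial covariate. *Mmp9* and *Mmp12* were at or under 11 counts in every library, too few to compare.

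**Figure D3:**
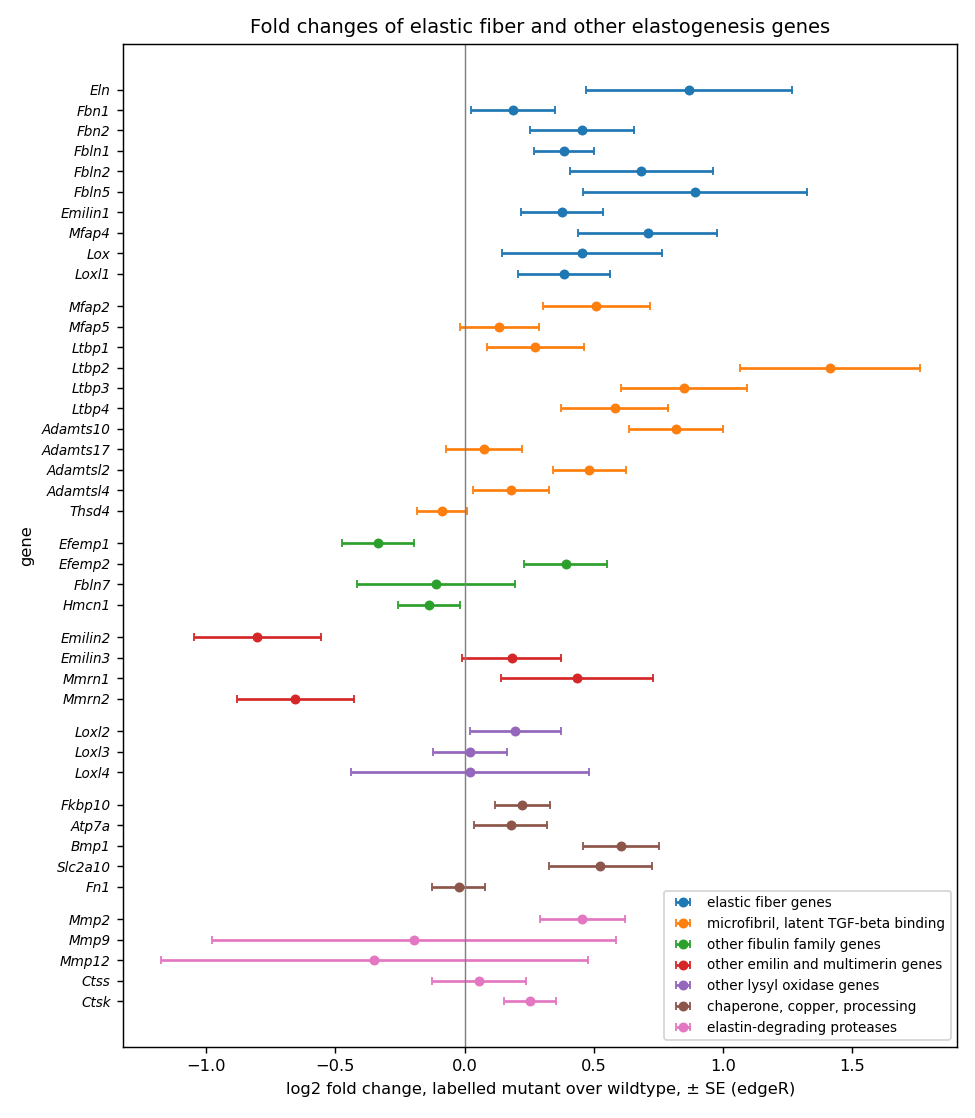
Log2 fold change of mutant over wildtype for the 10 elastic fiber genes and 32 other elastogenesis genes, coloured by role; bars are standard errors from edgeR's fit to 3 libraries per label. The 10 elastic fiber genes lie above 0 in this fit. With the Myocardial covariate, which partly follows the label, 7 of 10 lie below 0.

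The 10 genes lie on 8 chromosomes. *Emilin1* is 6.53 Mb from *Nos3* on chromosome 5, and *Eln* is 110 Mb from it on the same chromosome. *Fbn1* is 98.8 Mb from *Notch1* on chromosome 2. Exons of 5 of the 10 genes overlap a gene on the opposite strand. Those of *Fbn1* overlap 2442 bases of *Gm9913*, which had a mean of 0.589 CPM, and those of *Mfap4* overlap 89 bases of *Mapk7*, which had a mean of 37.2 CPM. *Eln* overlaps 267 bases of *Gm30003* (0.349 CPM), *Fbn2* 129 bases of *Gm26507* (4.575 CPM), and *Lox* 30 bases of *AC161119.1*, which was not among the genes listed. *Ltbp2*, *Ltbp3*, *Efemp2*, *Loxl2* and *Loxl3* likewise overlap a gene on the opposite strand. Since the strand setting of the counting is not given in the sources used here, reads over these bases cannot be assigned with certainty.

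Promoter windows of 300 bases around the start of a transcript were taken from RefSeq (GRCm38.p6). They were searched for the motif of Rbpj, the DNA-binding protein through which *Notch1* acts. Control of these genes by *Notch1* was not tested. Matched by symbol were 5 of 10 genes, with 7 windows; *Eln*, *Mfap4*, *Loxl1*, *Lox* and *Fbn2* were not matched. The core Rbpj motif TGGGAA was searched on both strands, where it reads TTCCCA on the other. It was held by 3 of the 7 windows, of *Fbn1*, *Fbln5* and *Fbln1*, while 8397 of 32851 windows of all genes held it (25.6%). *Fbln5* and *Fbln1* each had another window without it. A match of these letters is a description and not a binding site. The windows that hold it are shown 5′ to 3′ on the strand of the gene, with the motif in capitals: *Fbn1* at chr2:125506389-125506688 (minus strand), *Fbln5* at chr12:101819070-101819369 (minus strand) and *Fbln1* at chr15:85205699-85205998 (plus strand).
Fbn1: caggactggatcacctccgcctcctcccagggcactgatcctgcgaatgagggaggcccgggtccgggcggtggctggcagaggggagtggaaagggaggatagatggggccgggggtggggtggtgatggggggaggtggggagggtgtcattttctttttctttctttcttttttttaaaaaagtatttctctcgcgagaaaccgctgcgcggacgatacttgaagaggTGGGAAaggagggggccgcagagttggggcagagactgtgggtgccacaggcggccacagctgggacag
Fbln5: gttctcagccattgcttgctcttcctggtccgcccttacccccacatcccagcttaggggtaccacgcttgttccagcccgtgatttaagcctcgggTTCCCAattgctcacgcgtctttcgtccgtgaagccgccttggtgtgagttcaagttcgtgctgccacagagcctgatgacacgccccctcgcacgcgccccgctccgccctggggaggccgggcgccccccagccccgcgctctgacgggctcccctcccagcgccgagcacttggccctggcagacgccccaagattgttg
Fbln1: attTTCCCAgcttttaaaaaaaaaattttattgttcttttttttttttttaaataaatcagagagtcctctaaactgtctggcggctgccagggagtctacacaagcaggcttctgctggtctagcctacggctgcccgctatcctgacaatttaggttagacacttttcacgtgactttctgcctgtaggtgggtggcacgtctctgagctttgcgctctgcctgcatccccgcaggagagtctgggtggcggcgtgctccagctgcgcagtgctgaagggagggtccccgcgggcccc
The motif began at base 232 of the *Fbn1* window, base 98 of the *Fbln5* window and base 4 of the *Fbln1* window, counted from the 5′ end. The 3 genes with it included both the steepest gene over the libraries, *Fbln5*, and the shallowest, *Fbln1*.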

How the data were processed

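The authors aligned paired-end reads of 50 bases from stranded, ribosome-depleted total RNA to mm10 with TopHat 2.1.0 and counted reads on exons with GenomicAlignments. The deposited values are whole-number counts per gene, without normalization. The annotation release, strand setting and treatment of overlapping genes in the counting are not given in the sources used here. Identifiers were matched to GENCODE vM21 (28723 of 28777). The 620 genes whose reads summed to 5 or less were left out. Counts were fitted in R 4.3.3 with edgeR 4.0.16 (TMM, quasi-likelihood test, no covariate, Benjamini-Hochberg adjustment over all 28157 genes, called at 0.05), and DESeq2 1.42.0 was the other tool. The fits were tested on simulated data. Per-library values are TMM-scaled CPM, and RPKM divides them by the exon union. The exact permutation test, two-sided, used mean log2(CPM + 0.5).

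Alternatives were other scalings, filters and thresholds, a correction for GC content and length, Myocardial or VSMC covariates, the replicate number as a block, and leaving out each library. The members, role groups and marker lists were chosen with earlier results of these data known. Named genes were the members, *Notch1*, *Nos3*, genes of the role lists, the most abundant marker of each list and the 5 genes nearest to *Eln*. The 9 marker lists were Myocardial, VSMC, Mesenchymal, Endothelial, Epicardial, Neural crest and glia, Blood, Macrophage and Cartilage. *Foxd3*, of the neural crest list, was not among the genes listed. Replicates were separate pools of embryos, and the errors given hold for counting and for differences between pools.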

Additional observations from a re-analysis of the deposited data

How the results depend on the processing

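There were 3 pooled libraries per label. Each elastic fiber gene held at least 1164 counts in every library, and most were spread widely between libraries of the same label. Some other elastogenesis genes, *Loxl4*, *Mmp9* and *Mmp12*, had few counts. How far spread or depth limits these comparisons was not tested. Of 170 alternative fold changes of the 10 elastic fiber genes, 143 kept their direction and side of the threshold, 16 passed it and 11 changed sign; of 323 for 19 other named genes, 259, 40 and 16 did, and 8 no longer passed. The causes were not tested.

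Genes called numbered 6 in edgeR, 749 in DESeq2, 3 with the VSMC covariate, 2 at an adjusted p of 0.01, and between 1 (without mutant library 3) and 2593 (without wildtype library 1) when a library was left out. Elastic fiber genes called then lay between 0 and 2, and other elastogenesis genes called between 0 and 11; DESeq2 called 2 of the latter. Leaving out a library moved the median log2 fold change of the elastic fiber genes between 0.29 and 0.79. Scaling by library size alone moved the median of all genes from 0.01 to 0.11 and that of the elastic fiber genes to 0.55, 0.43 above it.

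With the Myocardial covariate, the medians were -0.041 for the elastic fiber genes and -0.016 for the other elastogenesis genes. In that fit log2 fold changes were -0.29 for *Eln*, -0.14 for *Fbn1*, -0.028 for *Fbln2*, -0.25 for *Fbln5*, -0.0046 for *Emilin1*, -0.33 for *Lox*, -0.054 for *Loxl1*, -0.0074 for *Mfap2*, -0.052 for *Ltbp1*, -0.072 for *Loxl2*, -0.036 for *Loxl3* and -0.47 for *Loxl4*. With the VSMC covariate they were -0.087 for *Eln*, -0.061 for *Fbn1*, -0.026 for *Fbln5*, -0.15 for *Lox*, -0.0047 for *Loxl2*, -0.034 for *Loxl3* and -0.25 for *Loxl4*. With the GC and length correction, *Loxl3* and *Loxl4* were at -0.082 and -0.13, with the replicate block added at -0.076 and -0.023, and when a library was left out they lay between -0.072 and 0.12 and between -0.35 and 0.28.

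The replicate block by title numbers called 1577 genes, 9 elastic fiber genes (all but *Fbn1*) and 12 other elastogenesis genes, and with the GC and length correction 2203, 5 and 12. Over genes, deviations of same-numbered libraries correlated at 0.063, 0.097 and 0.32, and 2 of 3 were under the 0.1 asked of every pair, so the numbers were not taken as a pairing. Mutant libraries 1 and 3 correlated best with their own number and mutant library 2 with wildtype library 1, a hint from the data and not the design. A block by the numbers in the descriptions, chosen after seeing the data, called 83 genes, 0 elastic fiber genes and 1 other, *Ltbp2*. At an unadjusted p under 0.05 in that fit there were 8 elastic fiber genes, where 3653 of 28157 genes tested passed, in either direction. RPKM by longest transcript differed by over 1 SD for 8 of 20 levels.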
